A study of Mus musculus with 24 samples.

Results

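The genes described here were the regulators and products of T helper lineages other than Th2: Tbx21, Eomes, Cxcr3 and Ifng of the Th1 lineage, Il17a and Ahr of the Th17 lineage, Foxp3 of regulatory T cells, Bcl6 of follicular helper T cells, and Runx3, which acts with T-bet in Th1 cells. These 9 genes were chosen by symbol among the 23420 genes counted in each of 24 RNA-seq libraries of mouse cells. The study asked what TET dioxygenases and the DNA glycosylase TDG contribute to DNA demethylation and to gene expression. RNA was sequenced from Th2 cells and from bone marrow-derived macrophages (BMDMs) of C57BL/6 mice.

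The mice of the Tdg cohort carried a floxed Tdg gene and those of the Tet cohort floxed Tet1, Tet2 and Tet3, each with a Cre-dependent fluorescent reporter at Rosa26. Deletion was driven by a tamoxifen-activated Cre-ERT2 that was not restricted to T cells or macrophages, and adult mice of every group received tamoxifen. The deleted genotypes are called TDG iKO and TET iTKO, and mice without the deletion WT. Th2 cells were made from naive CD4+ T cells of spleen and lymph nodes, stimulated for 2 days with antibodies to CD3 and CD28 at 1 μg/ml each, with IL-4 at 1000 U/ml and a neutralizing antibody to IFN-γ at 1 μg/ml, and then kept for 3 days with IL-2 at 20 U/ml. There were 4 Th2 libraries of TDG iKO and 4 of WT, and no TET iTKO Th2 library was analysed here. BMDMs were grown with M-CSF and harvested untreated (0 h) or after 6 h with KLA (Kdo2-lipid A, a defined agonist of TLR4), with 2 libraries for each genotype and time in each cohort, 16 in all.

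A T helper cell takes its lineage from a small set of transcription factors that open the genes of one programme and repress those of the others. In Th2 cells GATA3 and STAT6 maintain the IL-4 programme, whereas T-bet, RORγt, FOXP3 and BCL6 organize the Th1, Th17, regulatory and follicular programmes, and exogenous IL-4 with a block of IFN-γ is the standard way of holding the Th1 arm down in culture. TET enzymes oxidize 5-methylcytosine at CpG dinucleotides, and TDG excises the most oxidized products of that reaction.

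The start sites of the members differed widely in CpG content. The methylated and oxidized cytosines on which TET enzymes and TDG act were not measured there. RefSeq promoter windows of 300 bases, from 250 before to 50 after a transcription start (GRCm38.p6), were found for 8 members, which had 11 windows, and none was found for Ahr. The downstream Runx3 window held 45 CpG dinucleotides, which placed it at the 98.1 percentile of 32851 windows with a median of 7, and the upstream Bcl6 window held 31 (89.4 percentile). The Tbx21 window held 21 CpGs, that of Eomes 10 and that of Cxcr3 4. The downstream Runx3 window (chr4:135152295-135152594, plus strand) and the upstream Bcl6 window (chr16:23988803-23989102, minus strand) are shown 5′ to 3′ as the CpG-dense cases, with each CG in capitals:
Runx3 downstream start: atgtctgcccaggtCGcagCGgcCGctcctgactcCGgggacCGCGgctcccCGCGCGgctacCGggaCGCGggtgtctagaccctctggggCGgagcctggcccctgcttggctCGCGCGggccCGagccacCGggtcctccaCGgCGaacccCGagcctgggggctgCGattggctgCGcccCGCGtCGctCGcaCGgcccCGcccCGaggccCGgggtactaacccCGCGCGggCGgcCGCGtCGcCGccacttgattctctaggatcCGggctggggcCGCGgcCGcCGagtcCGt
Bcl6 upstream start: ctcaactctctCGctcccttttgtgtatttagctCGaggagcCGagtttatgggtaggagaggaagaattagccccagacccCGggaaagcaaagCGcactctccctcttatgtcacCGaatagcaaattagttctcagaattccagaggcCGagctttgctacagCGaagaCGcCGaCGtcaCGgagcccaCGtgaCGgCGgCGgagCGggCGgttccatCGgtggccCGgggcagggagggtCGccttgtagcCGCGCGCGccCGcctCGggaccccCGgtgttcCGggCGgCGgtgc
Runx3 and Cxcr3 are the members whose counts differed most between TET iTKO and WT BMDMs after KLA. The RUNX core ACCACA (or TGTGGT on the other strand) occurred at 2 places in the upstream Runx3 window (chr4:135120395-135120694, plus strand). It occurred at 2 in the Cxcr3 window (chrX:101734098-101734397, minus strand) and at 0 in the downstream Runx3 window. Whether the motif has a part in the differences was not tested. The upstream Runx3 window and the Cxcr3 window are shown with that motif in capitals:
Runx3 upstream start: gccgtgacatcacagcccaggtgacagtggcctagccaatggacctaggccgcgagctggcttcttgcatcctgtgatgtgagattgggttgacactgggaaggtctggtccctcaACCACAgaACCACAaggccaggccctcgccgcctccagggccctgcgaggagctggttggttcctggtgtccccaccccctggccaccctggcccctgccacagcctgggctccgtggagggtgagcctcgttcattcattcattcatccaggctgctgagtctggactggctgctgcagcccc
Cxcr3 start: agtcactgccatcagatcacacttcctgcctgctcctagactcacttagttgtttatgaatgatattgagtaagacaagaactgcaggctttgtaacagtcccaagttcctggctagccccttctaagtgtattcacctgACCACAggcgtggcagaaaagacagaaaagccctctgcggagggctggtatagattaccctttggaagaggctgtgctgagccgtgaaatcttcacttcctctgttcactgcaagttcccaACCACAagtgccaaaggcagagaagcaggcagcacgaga
The copies began at -134 and -126 bases from the upstream Runx3 start and at -110 and 12 from the Cxcr3 start, the copies within each window did not overlap, and 1 copy began at -52 in the Il17a window. Of all 32851 windows, 16.8% held at least 1 copy and 1.81% at least 2, against 3 of the 11 member windows with at least 1. The T-box core GGTGTGA, or TCACACC on the other strand, was in 0 of the 11 member windows and in 3.98% of all windows. These matches describe the letters of the reference and were not measured in the cells.

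Library depth ranged from 4982950 to 26657729 counts over genes with a median of 14853861, so that a floor of 3 counts corresponded to 0.1125 to 0.6021 CPM (counts scaled to the library total), and the floors cover counting error only. Th2 replicates 3 and 4 of each genotype agreed to near counting noise (chi-square per gene 1.337 for TDG iKO and 1.511 for WT, against 21.27 or more in the other Th2 pairs), and each pair was summed and counted as 1 sample, which left 3 Th2 samples per genotype. By the library numbers in the sample titles, replicates 1 and 2 were libraries 1 to 4 and replicates 3 and 4 libraries 17 to 20. The 8 T cell markers summed to 2290 to 3250 CPM in Th2 libraries and to 7.68 to 28.2 CPM in BMDMs, and 8 macrophage markers to 10.0 to 60.3 and 22100 to 29100 CPM, with Csf1r, Lyz2, Fcgr1 and Mertk at or under the floor in Th2 cells. Tdg had 0 to 7 counts in every library, WT included, which leaves the TDG iKO labels unchecked, and gene-level counts do not resolve deleted exons, so that Tet1, at 0 to 11 counts in WT and 2 to 17 in TET iTKO BMDMs of the Tet cohort, Tet2, at 563 to 1515 and 719 to 2168, and Tet3, at 1215 to 2039 and 1320 to 1840, leave the TET iTKO labels unchecked too. TDG iKO Th2 replicate 1 had 16 Xist counts and 4277 counts of Y-linked genes, whereas the other Th2 libraries had 18275 to 104420 Xist counts. The labels do not say whether replicates of a group came from separate animals or cultures, so the p-values measure the spread between these samples, which may be technical in part.

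In WT Th2 cells Runx3 was the highest of the 9 members and Ifng the lowest. Runx3, a transcription factor that represses Il4 in Th1 cells and Cd4 in CD8 T cells, lies at chr4:134676567-134733905 on the plus strand (mm9, as are all gene loci given here). It was at 27.2 ± 6.05 CPM per kb of exon (SD, n = 3), under the Th2 regulator Gata3 at 105 ± 12.1. Cxcr3, the chemokine receptor of Th1 and effector CD8 T cells, followed at 10.3 ± 5.62, and Tbx21, which encodes the Th1 master regulator T-bet, at 2.89 ± 1.19. Eomes at 1.13 ± 0.319, Foxp3 at 0.898 ± 0.139 and Ahr at 0.572 ± 0.109 CPM per kb came next. Il17a at 0.42 ± 0.388, Bcl6 at 0.384 ± 0.279 and Ifng at 0.2 ± 0.202 closed the order. The ranges of the samples did not overlap between Runx3 and Cxcr3, between Cxcr3 and Tbx21, between Tbx21 and Eomes, or between Foxp3 and Ahr, and all other neighbours in the order overlapped.

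**Figure D1:**
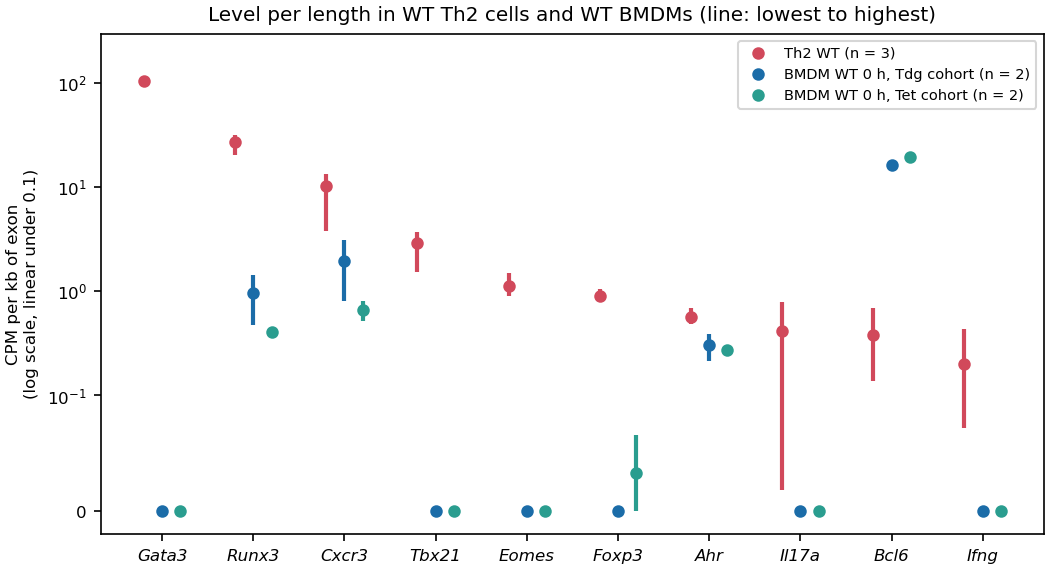
Levels in WT Th2 cells (3 samples) and in untreated WT BMDMs of the Tdg and Tet cohorts (2 libraries each) as CPM per kb of exon, on an axis that is logarithmic above 0.1 and linear below, with points at group means and lines from the lowest to the highest sample. Gata3 is shown for scale. Runx3 stands at 27.2 in Th2 cells and Bcl6 at 16.3 and 19.7 in the BMDM cohorts.

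Ifng and Il17a, the signature cytokines of Th1 and Th17 cells, were at the limit of detection in these libraries. Ifng (chr10:117878103-117882948, plus strand) had 0 to 4 counts per Th2 library and was at or under 3 counts in 5 of 8. Il17a (chr1:20720986-20724577, plus strand) had 0 counts in all 4 TDG iKO libraries and 8, 4, 0 and 1 counts in WT replicates 1 to 4, so that 6 of 8 libraries were at or under the floor. The other 7 members were above 3 counts in all 8 Th2 libraries, although Bcl6 had 4 counts in TDG iKO replicate 1.

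No member passed the test between TDG iKO and WT Th2 cells. DESeq2 called 0 of the 9 members and 0 of 15826 tested genes at an adjusted p under 0.05 (percentage called 0, with 77 genes at an unadjusted p under 0.05), and edgeR's quasi-likelihood test called 0 with 87 at that unadjusted level. With the replicate number as a block DESeq2 called 15 genes, none of them a member. With the library set (replicates 1 and 2, or the summed replicates) as a covariate it called 42 genes, again no member. The main fit held genotype alone, so spread between the library sets counted as spread within each genotype. The SEs and intervals of the Th2 genotype differences below come from that fit and include this spread. Counts below were normalised by DESeq2's size factors and are given for replicate 1, replicate 2 and the sum of replicates 3 and 4, in that order.

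Of the Th1 genes, Tbx21 (chr11:96959385-96976645, minus strand) was at 134.6, 117.1 and 51.3 normalised counts in WT and at 93.0, 230.7 and 22.7 in TDG iKO. TDG iKO replicate 2 was the highest and the summed replicates were the lowest in both genotypes, so the genotypes overlapped. The log2 difference of TDG iKO from WT was 0.19 (SE 0.75, 95% interval -1.29 to 1.67, unadjusted p = 0.802 by DESeq2). With the replicate block it was -0.25, the opposite direction.

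Eomes, the T-box relative of T-bet at chr9:118387330-118395250 on the plus strand, was at 58.9, 52.3 and 83.9 normalised counts in WT and at 82.3, 152.5 and 95.3 in TDG iKO. Replicate by replicate the TDG iKO value was the higher, although the ranges overlapped at 82.3 and 83.9. The log2 difference was 0.71 (SE 0.38, 95% interval -0.04 to 1.47, unadjusted p = 0.0619, adjusted p = 1 by DESeq2).

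Cxcr3 (chrX:98926874-98929608, minus strand) was at 340.0, 324.4 and 89.7 normalised counts in WT and at 331.6, 405.6 and 31.6 in TDG iKO. Its values followed the library set and not the genotype, with both summed samples well under the other 4. The log2 difference between genotypes was 0.03 (SE 0.81, 95% interval -1.56 to 1.62) and became -0.39 with the replicate block. That SE and interval include the gap between the library sets. Ifng was too low for a fold in either genotype (unadjusted p = 0.625).

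Foxp3, the regulator of regulatory T cells, was lower in each TDG iKO sample but did not pass the test. It was at 60.6, 45.1 and 43.1 normalised counts in WT and at 16.7, 35.3 and 21.7 in TDG iKO. All 3 TDG iKO samples were under all 3 WT samples, a separation that 549 of the 15826 tested genes showed in one direction or the other (3.47%). The log2 difference was -1.04 (SE 0.44, 95% interval -1.90 to -0.19, unadjusted p = 0.0171), but the adjusted p was 1 by DESeq2, 0.91 with the replicate block and 0.506 with the library set as a covariate. Foxp3 lies at chrX:7156802-7172369 on the plus strand, where it overlaps Ppp1r3f and Ccdc22 on the other strand and 4930524L23Rik on its own strand. The strand setting of the counting is not given in the sources used here, so reads of these genes may be shared or left out as ambiguous. The lowest value was that of TDG iKO replicate 1, the library with Y-linked counts, and without it the log2 difference was -0.84.

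Il17a was the other member whose genotypes did not overlap, with 13.5, 7.21 and 0.29 normalised counts in WT and 0 in each TDG iKO sample. The separation of the summed samples rested on 1 count, under the floor, and no fold is given (unadjusted p = 0.017, adjusted p = 1 by DESeq2). Ahr, the ligand-activated receptor that promotes Th17 and IL-22 programmes (chr12:36182646-36219710, minus strand), was at 43.8, 45.1 and 58.0 normalised counts in WT and at 78.7, 44.6 and 60.2 in TDG iKO. The 2 genotypes overlapped, with a log2 difference of 0.31 (SE 0.37, 95% interval -0.41 to 1.03).

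Bcl6, the repressor that directs follicular helper differentiation (chr16:23965138-23988938, minus strand), was at 32.0, 12.6 and 62.0 normalised counts in WT and at 4.77, 14.9 and 44.9 in TDG iKO. The summed samples were the highest of their genotype and the log2 difference was -0.71 (SE 0.89, 95% interval -2.47 to 1.04). It was -0.02 without the summed WT sample and -1.94 without the summed TDG iKO sample. Runx3 was at 2134.0, 1402.0 and 2147.7 in WT and at 1257.2, 1495.7 and 1964.4 in TDG iKO. Its groups overlapped, and its log2 difference of -0.27 (SE 0.28, 95% interval -0.82 to 0.28) had the narrowest interval of the 7 members given a fold, and that interval did not reach a 2-fold difference in either direction.

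**Figure D2:**
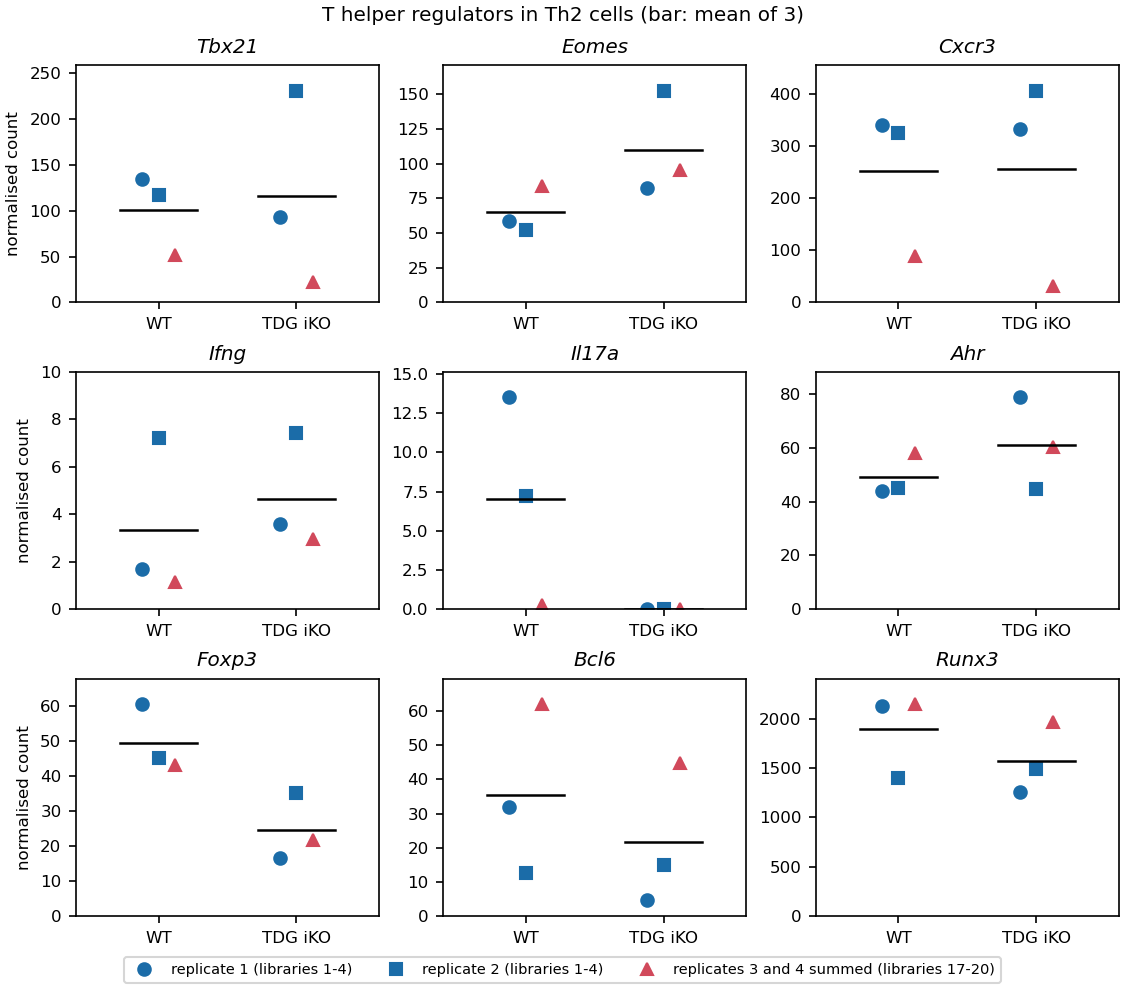
Normalised counts of the 9 members in WT and TDG iKO Th2 cells, with 1 point for each of 3 samples per genotype, marked by replicate and coloured by library set, and a bar at the mean. The triangles of libraries 17 to 20 lie lowest for Cxcr3 and Tbx21 and highest for Bcl6 in both genotypes, and the genotypes separate for Foxp3 and Il17a alone.

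The wider programmes also showed no call between genotypes. In 7 lists of T helper genes (Th1, Th17, regulatory, follicular, AHR partners and targets, RUNX and T-box relatives, and Th2), none of the tested genes was called in either direction. That fit called 0 of 15826 genes, so no list gene could be among its calls. The lists were not counted in the fits with the replicate block or the library set, which called 15 and 42 genes. The medians of the log2 difference lay between -0.28 and 0, against -0.01 over all genes. The most abundant were Gzmb, the granzyme of cytotoxic effectors, at 1330 CPM per kb in WT with a log2 difference of 0.30 (SE 0.29), and Hsp90ab1, a chaperone of the AHR complex, at 1120 CPM per kb with 0.10 (SE 0.34). Il2ra, the high-affinity IL-2 receptor chain, stood at 520 CPM per kb with -0.06 (SE 0.38).

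Between the Th2 library sets 4 members were called, where the genotypes gave 0. Comparing libraries 17 to 20 (1 summed sample per genotype) with libraries 1 to 4, with genotype in the model, DESeq2 called 41.4% of 15898 tested genes, and 4 of 9 members is a share near that background. Tbx21 and Cxcr3 were lower in libraries 17 to 20 (20.7% of genes were lower) and Bcl6 and Runx3 higher (20.6% of genes were higher). The titles say only that these libraries carry other numbers, and what differed between them (animals, cultures or preparation) cannot be told apart. In RNA of whole cultures, fewer cells of a type and less RNA per cell cannot be told apart either.

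Cxcr3 was at 60.6 ± 41.1 normalised counts (SD, n = 2) in libraries 17 to 20 and at 350 ± 37.3 (n = 4) in libraries 1 to 4, a log2 difference of -2.60 (SE 0.31, adjusted p = 3.54e-16 by DESeq2). Tbx21 was at 37.0 ± 20.2 and 144 ± 60.3, a log2 difference of -1.98 (SE 0.42, adjusted p = 9.4e-06). Both genes were lower in libraries 17 to 20 in each genotype, with no overlap. Without any one sample the log2 difference of Cxcr3 lay between -3.54 and -1.89 and that of Tbx21 between -2.82 and -1.30, and both calls held.

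Bcl6 was at 53.5 ± 12.1 normalised counts in libraries 17 to 20 and at 16.1 ± 11.5 in libraries 1 to 4, a log2 difference of 1.85 (SE 0.56, adjusted p = 0.00244 by DESeq2). The call was lost without the summed WT sample (2.25, adjusted p = 0.11) or the summed TDG iKO sample (1.47, adjusted p = 0.246), which leaves 1 sample in libraries 17 to 20. Runx3 was at 2060 ± 130 against 1570 ± 387, a log2 difference of 0.40 (SE 0.16, adjusted p = 0.0328), with overlapping ranges. Its call was lost without TDG iKO replicate 1 (adjusted p = 0.0898), WT replicate 2 (0.0849), the summed WT (0.357) or the summed TDG iKO sample (0.347). Foxp3 at -0.26 (SE 0.41), Eomes at 0.16 (SE 0.34) and Ahr at 0.16 (SE 0.35) were not called, nor was Il17a, with an adjusted p of 0.0515 by DESeq2 and of 0.0149 by edgeR, or Ifng (adjusted p = 0.348).

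Genes of the wider programmes moved in both directions between the library sets. The calls in each list below are counted beside the 20.6% of all genes called higher and the 20.7% called lower, and no list was tested as a set. Of 20 Th1 genes 12 were higher in libraries 17 to 20, led by Il18r1 (log2 difference 3.8) and Il18rap (3.07), the chains of the IL-18 receptor, and by the T cell kinase Txk (3.36), and 2 were lower, Il12rb2 (-4.91, 40.8 against 1270 normalised counts), the inducible chain of the IL-12 receptor, and the homeobox factor Hlx (-3.06). The Th1 median was 1.11, against 0.01 over all genes. Among 18 Th17 genes 5 were higher, including Tgfbr2 (1.62), and 6 lower, including the cytokine Il21 (-4.02) and the transcription factors Irf4 (-2.10) and Batf (-1.48), with a median of -0.21.

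Of 20 regulatory T cell genes 5 were higher, among them Lrrc32 (2.26), which anchors latent TGF-β, and 8 lower, among them Il10 (-1.31) and Ctla4 (-1.16), with a median of -0.47. Of 19 follicular genes 10 were higher, including Id3 (1.98) and Tcf7 (1.89), transcription regulators of naive and follicular T cells, and 4 lower, including Icos (-1.15), with a median of 0.54. AHR partners and targets had 2 higher, Nqo1 (0.97) and Arnt (0.33), and 2 lower of 8, Hsp90ab1 (-0.81) and Ptges3 (-0.42), with a median of -0.20. The RUNX and T-box relatives had 4 higher of 7, including Runx2 (2.14) and Zbtb7b (1.48), the CD4 lineage factor ThPOK, with a median of 1.48. Of 11 Th2 genes 7 were lower, including Il24 (-2.49), Il5 (-2.93) and Il13 (-2.47), whereas Il1rl1, the IL-33 receptor, was the 1 that was higher (7.0), and the median was -0.37. The naive T cell markers Ccr7, Klf2 and S1pr1 summed to 215 to 276 CPM in libraries 1 to 4 and to 595 to 703 CPM in libraries 17 to 20. The 6 natural killer markers summed to 103 to 185 and 78.4 to 113 CPM, with Ncr1, Klrb1c and Klre1 at or under the floor, the CD8 markers to 14.9 to 22.2 and 18.3 to 21.6 CPM, and the B cell markers to 1.04 to 2.49 and 3.83 to 4.57 CPM. The ribosomal precursor Rn45s took 0.84% to 8.341% of counts in libraries 1 to 4 and 0.347% to 0.387% in libraries 17 to 20, and the totals were 7641848 to 12288517 and 12522533 to 26657729 counts. The part of these markers, of Rn45s and of depth in the differences between library sets was not tested.

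In BMDMs Il17a, Tbx21, Ifng, Eomes and Foxp3 were at or near the floor of 3 counts. Il17a had 0 counts in all 16 libraries, Tbx21, Ifng and Eomes had 3 counts or fewer in all 16, and Foxp3 had 4 counts in 1 library and 3 or fewer in 15. Runx3, Ahr, Cxcr3 and Bcl6 were measurable, and Bcl6, which restrains inflammatory gene expression in macrophages, was the highest of them.

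Against untreated WT BMDMs of both cohorts, WT Th2 cells differed in 6 of the 9 members, with 47.4% of 16055 tested genes called. Runx3 was at 1480 ± 338 normalised counts in Th2 cells (n = 3) and at 49.2 ± 39.8 in BMDMs (n = 4), a log2 difference of 4.99 (SE 0.50, adjusted p = 1.08e-22 by DESeq2). Bcl6 ran the other way, at 27.8 ± 19.6 in Th2 cells and 1690 ± 218 in BMDMs (-5.84, SE 0.43, adjusted p = 1.46e-39). Tbx21 was at least 18-fold and Eomes at least 11.6-fold higher in Th2 cells, against a floor of 3 counts per library in BMDMs, where both were at 0.

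Foxp3 was called as well (adjusted p = 1.74e-06 by DESeq2), with 25 to 91 counts per WT Th2 library and 4, 0, 0 and 0 counts in the BMDM libraries, too few there for a fold, and so was Cxcr3 at 196 ± 109 against 31.5 ± 28.1 (2.63, SE 0.68, adjusted p = 0.000314), although 1 BMDM library at 73.4 lay above the summed WT Th2 sample at 70.3. The log2 difference of Ahr was 0.67 (SE 0.44, adjusted p = 0.189). Cell type and library preparation cannot be told apart in this comparison.

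TDG iKO and WT BMDMs were compared next, without and with KLA. DESeq2 called 0 of the 9 members and 0 of 15026 genes at 0 h and at 6 h (percentage called 0, with 265 and 34 genes at an unadjusted p under 0.05), and edgeR also called 0, with 344 and 40. At 0 h the replicate block gave 4 called genes. Without WT 0 h replicate 1 there were 1184 called genes at 0 h.

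Runx3 was at 23.7 and 82.8 normalised counts in WT and at 29.4 and 46.8 in TDG iKO at 0 h, and at 33.2 and 25.3 in WT and 23.1 and 18.5 in TDG iKO at 6 h. The groups overlapped at 0 h, where the 2 WT libraries spanned both TDG iKO libraries, and the 6 h TDG iKO libraries lay under those of WT. The log2 difference was -0.44 (SE 0.71, 95% interval -1.82 to 0.95) at 0 h and -0.49 (SE 0.73, 95% interval -1.93 to 0.94) at 6 h.

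Ahr was at 13.3 and 27.6 in WT and at 19.3 and 21 in TDG iKO at 0 h, a log2 difference of 0.07 (SE 0.60), and at 122.2 and 110.0 and at 102.0 and 185.5 at 6 h, a difference of 0.31 (SE 0.50). Cxcr3 was at 54.1 and 16.1 in WT and at 48.6 and 12.4 in TDG iKO at 0 h (-0.25, SE 0.91), and between 7.12 and 11.1 in all 4 libraries at 6 h. Bcl6 lay between 988.9 and 2049.5 over the 8 libraries, with the replicate 2 library above replicate 1 in each group.

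Runx3, Ahr and Cxcr3 were called higher in TET iTKO than in WT BMDMs at 1 time or more. Of these calls only that of Runx3 at 6 h held in all 9 alternative fits, which included leaving out single libraries. At 0 h Runx3 and Ahr were higher, 2 of the 9 members, with 6.1% of 15028 genes called and 3.56% called higher. At 6 h all 3 were higher, with 5.07% called and 2.49% called higher. Il17a was at 0 and Tbx21, Ifng and Eomes were at or under the floor in the libraries of both genotypes.

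Runx3 was at 35.9 and 30.6 normalised counts in the WT libraries and at 103.1 and 163.6 in those of TET iTKO at 0 h. At 6 h it was at 18.6 and 8.83 in WT and at 99.2 and 156.6 in TET iTKO. The lowest TET iTKO library was more than 2-fold above the highest WT library at either time. The group means at 0 h were 133 ± 42.8 and 33.2 ± 3.81 (n = 2 each), a log2 difference of 2.01 (SE 0.42, adjusted p = 8.82e-05 by DESeq2), or 4.04-fold. At 6 h they were 128 ± 40.6 and 13.7 ± 6.88, a log2 difference of 3.22 (SE 0.48, adjusted p = 5.11e-09), or 9.31-fold. The 6 h call held without any one library (2.79 to 3.86, highest adjusted p = 0.000439), and the 0 h call was lost without TET iTKO 0 h replicate 2 (1.64, adjusted p = 0.112).

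Ahr was at 29.6 and 26 in WT and 50.9 and 97.1 in TET iTKO at 0 h, and at 129.9 and 192.0 in WT and 340.0 and 383.8 in TET iTKO at 6 h. Both TET iTKO libraries were above both WT libraries at each time. The log2 difference was 1.44 (SE 0.36, adjusted p = 0.00227 by DESeq2) at 0 h and 1.17 (SE 0.31, adjusted p = 0.004) at 6 h. The 0 h call was lost without TET iTKO replicate 2 (0.88, adjusted p = 0.546), without WT replicate 2 (1.33, adjusted p = 0.109) and when only the 4 libraries of that time were fitted (adjusted p = 0.0585). The 6 h call was lost without WT replicate 1 (0.92, adjusted p = 0.217), TET iTKO replicate 1 (1.25, adjusted p = 0.062) or TET iTKO replicate 2 (1.08, adjusted p = 0.241).

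Cxcr3 was at 14.8 and 22.9 in WT and at 34.0 and 50.3 in TET iTKO at 0 h, where the log2 difference of 1.15 (SE 0.66, adjusted p = 0.387 by DESeq2) was not called. At 6 h the WT libraries held 1 and 2 counts and the TET iTKO libraries 20 and 25. Cxcr3 is X-linked, and Tet-cohort WT replicate 1 had 0 Xist and 0 Y-linked counts at both times, against 17088 to 22210 Xist counts in the other libraries of the cohort. After scaling for depth the ratio of these sums was 13.8 (exact 95% interval 4.41 to 69.2, counting error only), and the adjusted p was 0.00782. The call was lost without WT replicate 1 (log2 difference 3.32, adjusted p = 0.155), WT replicate 2 (4.42, adjusted p = 0.0982) or TET iTKO replicate 2 (3.79, adjusted p = 0.0618), and with only the 4 libraries of that time (adjusted p = 0.0586). Bcl6 lay between 2109.8 and 2733.7 over the 8 libraries of the cohort, with log2 differences of 0.18 (adjusted p = 0.499) at 0 h and 0.03 (adjusted p = 0.955) at 6 h.

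**Figure D3:**
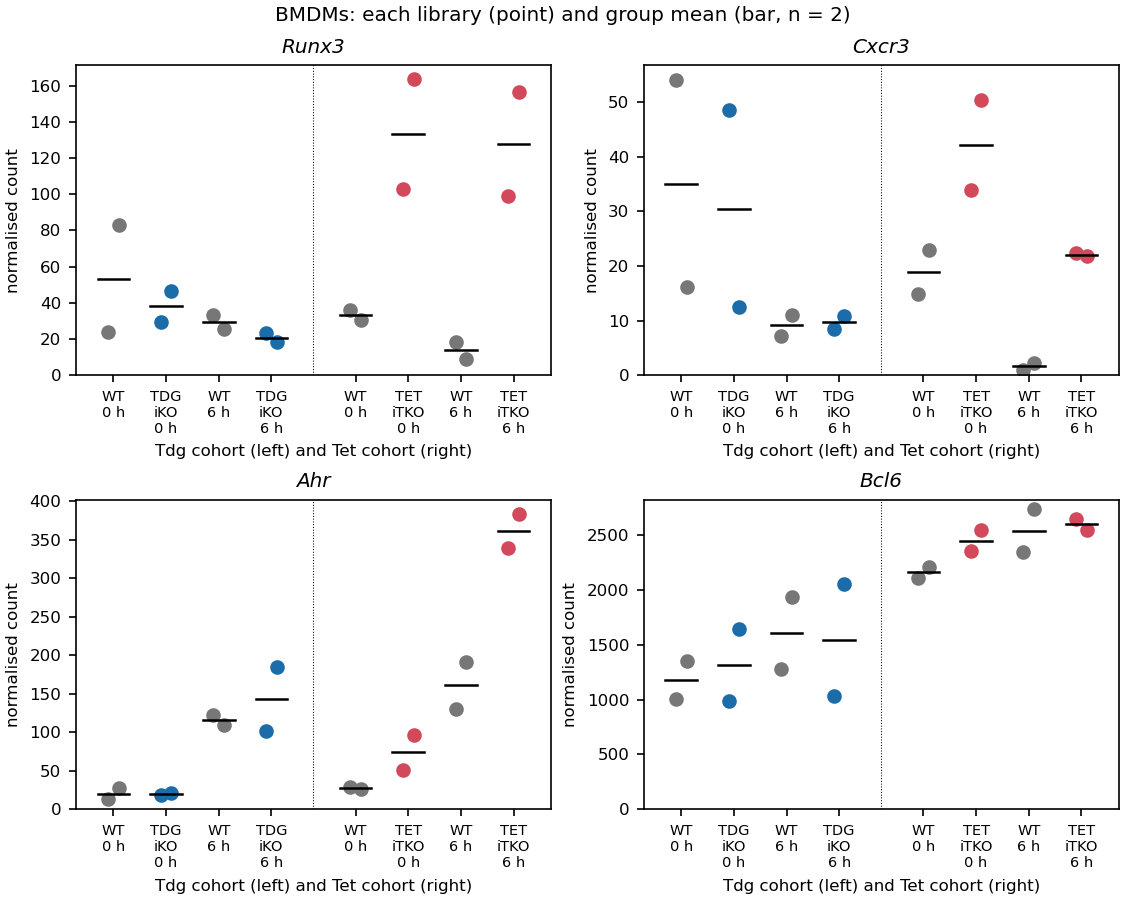
Normalised counts of Runx3, Cxcr3, Ahr and Bcl6 in each BMDM library (points) with group means (bars, 2 libraries each), for the Tdg cohort to the left of the dotted line and the Tet cohort to the right; each cohort was normalised separately. The Runx3 points of TET iTKO lie between 99.2 and 163.6, above every WT library of the Tet cohort, and Ahr is higher at 6 h than at 0 h in each genotype.

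Calls in the lists of related genes are counted beside the 6.1% and 5.07% of all genes called at 0 h and 6 h. Every list held at least 1 call at 0 h, and no list was tested as a set. Runx2, the bone and myeloid RUNX factor, was higher at 0 h in TET iTKO BMDMs (122 against 45.7 normalised counts, log2 difference 1.42) and at 6 h (1.46), and was the 1 gene called of 6 RUNX and T-box relatives. Ahrr, the repressor that AHR itself induces, was higher at 0 h (418 against 146, 1.51) and at 6 h (0.98), and was the 1 called of 9 AHR partners and targets. Of 14 Th17 genes 4 were higher and 0 lower at 0 h, including the IL-1 receptor Il1r1 (2.41) and the IL-23 receptor Il23r (2.28), and 3 were higher at 6 h, with Il1r1 at 2.54 and Il23r at 1.24.

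Of 18 Th1 genes 3 were higher at 0 h, led by Stat4 (1.95), and 1 lower, Ly6c2 (-0.45). At 6 h 1 Th1 gene was higher and 2 lower, Hlx (-0.78) and Ly6c2 (-0.36). Of 16 regulatory T cell genes 0 were higher and 2 lower at 0 h, Entpd1 (-0.75) and Nrp1 (-0.65), and 1 lower at 6 h, Capg (-0.38). Of 16 follicular genes 3 were higher at 0 h, led by Pou2af1 (2.13), a coactivator best known from B cells, and at 6 h 1 was higher, Pou2af1 (2.59), and 1 lower, P2rx7 (-0.82). Of 7 Th2 genes Il4ra (0.49) was higher at 0 h and 0 were called at 6 h.

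Markers of other cell types stood beside these differences as follows. The T cell markers summed to 15.5 to 22.8 CPM in TET iTKO and to 12.4 to 28.2 CPM in WT libraries, with Cd3g at or under the floor in every group. The natural killer markers reached 0.563 CPM in TET iTKO and 0 in WT, and the CD8 markers 0.512 and 0.243 CPM. The B cell markers were at 1.49 to 2.49 CPM in WT, at 5.86 and 4.1 CPM in TET iTKO replicate 1 at 0 h and 6 h, and at 22.4 and 19.6 CPM in TET iTKO replicate 2, the replicate that was also the higher for Runx3 and Ahr. The neutrophil markers summed to 65.4 to 135 CPM in TET iTKO and 28.1 to 51.9 in WT, and the macrophage markers to 23100 to 23500 and 26000 to 27800. The part of the B cell and neutrophil differences in these results was not tested.

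**Figure D4:**
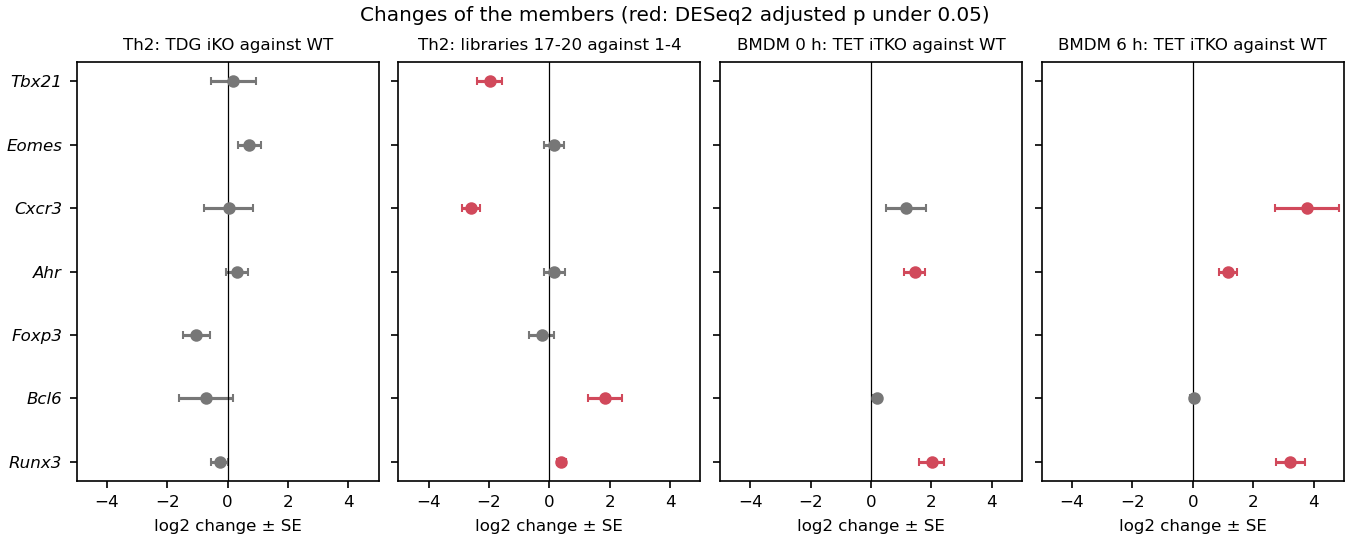
Log2 changes with standard errors for the 7 members whose counts allow a fold, in 4 comparisons, on a common axis of log2 change, with red for an adjusted p under 0.05 by DESeq2. No member is red for TDG iKO against WT in Th2 cells, 4 are red between the Th2 library sets, and Runx3 is at 2.01 and 3.22 for TET iTKO against WT BMDMs at 0 h and 6 h.

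Whether the effect on Runx3 differed between TET iTKO and TDG iKO was tested as the difference of the 2 genotype effects, each against the WT of its own cohort, a comparison added after the values had been seen. At 6 h the difference was 3.73 on the log2 scale (SE 0.86, 95% interval 2.05 to 5.41, adjusted p = 0.0246 by DESeq2), among the 0.0698% of 15753 genes called. By edgeR it was 3.70 with an adjusted p of 0.071. The DESeq2 call was lost without TET iTKO replicate 2 (adjusted p = 1), Tet-cohort WT replicate 2 (0.426), Tdg-cohort WT replicate 1 (0.217) or replicate 2 (0.2), TDG iKO replicate 2 (0.182) or TET iTKO replicate 1 (0.0721), with a log2 difference of 3.29 to 4.37 throughout. At 0 h it was 2.43 (SE 0.81, adjusted p = 0.284, with 0.241% of genes called), and 3.13 with an adjusted p of 0.000295 without Tdg-cohort WT replicate 1. The differences of Ahr (1.33 at 0 h and 0.86 at 6 h) and Cxcr3 (1.43 and 3.71) were not called.

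KLA was followed by higher Ahr in all 4 sets of BMDMs. In the Tdg cohort Ahr was 6.05-fold higher at 6 h in WT (log2 change 2.60, SE 0.57, adjusted p = 0.000191 by DESeq2, with 6.7% of genes called and 4.11% called higher) and 7.15-fold higher in TDG iKO (2.84, SE 0.53, adjusted p = 4.79e-06, 5.46% called and 3.31% higher). In the Tet cohort it was 5.82-fold higher in WT (2.54, SE 0.35, adjusted p = 1.22e-11, 19.1% called and 10.3% higher) and 4.83-fold higher in TET iTKO (2.27, SE 0.32, adjusted p = 1.78e-11, 18.4% called and 9.69% higher). Every 6 h library was above every 0 h library of its group, and each call held without any one library.

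The AHR list was counted beside Ahr itself, which it does not hold. Of its 9 genes 4 were higher after KLA and 0 lower in WT of the Tet cohort, among them Ahrr (1.54), Ptges3 (0.45) and Tiparp (0.42), an ADP-ribosyltransferase that AHR induces. The count was 4 of 9 in TET iTKO, with Ahrr at 1.01 and Tiparp at 0.54. In the Tdg cohort 1 gene was higher in WT, Tiparp (1.01), and 0 were called in TDG iKO.

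Cxcr3 and Runx3 were lower after KLA in WT BMDMs of the Tet cohort, where 8.73% of genes were called lower. Cxcr3 went from 44 counts over both 0 h libraries to 3 at 6 h, a ratio of 12.2 (exact 95% interval 3.91 to 61.4) with an adjusted p of 0.00413 by DESeq2, and the call was lost without 0 h replicate 2 (adjusted p = 0.0558), 6 h replicate 1 (0.0708) or 6 h replicate 2 (0.0582). Runx3 fell by 1.26 on the log2 scale (SE 0.50, adjusted p = 0.0484), which became 0.0573 with the replicate block, 0.034 with the block nested in genotype and 0.242 with only those 4 libraries. Its call was also lost without 0 h replicate 1 (adjusted p = 0.243), 0 h replicate 2 (0.129) or 6 h replicate 2 (0.44).

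In the other BMDMs neither gene was called. The log2 change of Cxcr3 was -1.97 in Tdg-cohort WT, -1.64 in TDG iKO and -0.94 in TET iTKO, and that of Runx3 -0.83, -0.88 and -0.06. The difference of the KLA response between TET iTKO and WT was 2.62 for Cxcr3 (SE 1.23, unadjusted p = 0.0335, adjusted p = 0.988 by DESeq2) and 1.2 for Runx3 (SE 0.64, unadjusted p = 0.059, adjusted p = 1), and no member was among the 0.346% of genes called. No member was called for the difference between TDG iKO and WT, where the percentage called was 0.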

How the data were processed

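RNA-seq libraries (8 of Th2 cells, 16 of BMDMs) were made with a directional kit. The authors aligned reads to mm9 with HISAT2 and deposited raw read counts per gene from HTSeq-count, with no normalisation, and tested them with DESeq2 1.30.0. Which gene annotation and strand option HTSeq-count used, and the HISAT2 version, are not given in the sources used here. The 5 tallies of unassigned reads in each table were left out of library sizes and tests, among them reads of more than 1 alignment, which came to 16.6% to 32.16% of the reads in each table. Genes with near-identical copies could therefore be undercounted.

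Here the 23420 genes were fitted with DESeq2 1.42.0 (Wald test, Benjamini-Hochberg adjustment over all genes, threshold 0.05) in R 4.3.3, with genotype in Th2 cells and with genotype by time within each BMDM cohort. Replicates with a chi-square per gene under 3 were summed. Alternatives were edgeR 4.0.16 (quasi-likelihood test), TMM factors, a filter of 10 counts in 2 libraries, a replicate block, the library set as a covariate, unsummed replicates, fits of fewer libraries and leaving out each sample. The fits were tested on simulated counts. A fold is given where a group mean reached 10 normalised counts, and the floor was 3 counts per library. Loci and exon lengths came from GENCODE M1 on mm9.

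Same-numbered Th2 samples of the 2 genotypes deviated together (r across genes 0.517, 0.724 and 0.918). The replicate number was therefore used as a block in alternative fits, and the main Th2 test was not paired. Replicate 1 of each genotype correlated with replicate 2 of the other at 0.688 and 0.691, above the 0.517 of the same-numbered samples. Between replicates 1 or 2 and the summed replicates r was -0.698 to -0.858. The correlations thus followed the library set and do not show that replicates 1 and 2 were pairs by number. In the BMDMs the correlation was 0.326 and 0.788 for genotypes of the Tdg cohort, 0.0255 and 0.0393 for those of the Tet cohort, and 0.359 to 0.8 between times, where the deposited names of the Tet cohort carry the same number, which may be the animal's, at 0 h and 6 h.

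Members and gene lists (145 of 146 list and marker symbols were found) were chosen with earlier results of these data known. All members are named in every comparison with a call or a measurable level. From the lists, up to 3 called genes per direction are named by the size of the change, with no overlap between groups and a mean of at least 20 normalised counts, plus the most abundant genes in WT Th2 cells. Some genes of the lists and 1 naive T cell marker are not reported here. Plots were drawn with matplotlib 3.10.9.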

Additional observations from a re-analysis of the deposited data

Results flagged for a closer look

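Runx3 in BMDMs after 6 h of KLA differed between the 2 cohorts in the effect of the deletion by DESeq2 and not by edgeR. Runx3 was at 18.6 and 8.83 normalised counts in WT and at 99.2 and 156.6 in TET iTKO libraries, and at 33.2 and 25.3 in WT and 23.1 and 18.5 in TDG iKO libraries. The difference between the TET iTKO effect and the TDG iKO effect was 3.73 on the log2 scale (adjusted p = 0.0246 by DESeq2, 0.071 by edgeR), and it was tested after the values had been seen. The DESeq2 call was lost when any of 6 of the libraries was left out, with an adjusted p of up to 1. In these 6 h values the TET iTKO libraries lay above their WT libraries and the TDG iKO libraries below theirs. These are the values that led to the comparison, and the share of all genes with such a separation was not counted. At 0 h the WT libraries of the Tdg cohort (23.7 and 82.8) spanned those of TDG iKO (29.4 and 46.8). The cohorts differ in their floxed genes, their reporter and their WT libraries, and the part of each in the difference was not tested.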

How the results depend on the processing

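Of 160 recomputed counts of called members 143 stayed within 1.5 times the reported count. They include 14 for TDG iKO against WT in Th2 cells and 9 at each time in BMDMs. There the reported count was 0 and most fits called few or no genes, so that agreement was nearly fixed in advance. A member could also lose its call within that band, as Runx3 did with the replicate block after KLA in Tet-cohort WT. The count for TET iTKO against WT at 0 h was 1 with only the 4 libraries of that time, and that for the TET effect against the TDG effect at 6 h was 0 by edgeR. Without any one library the count was 2 to 4 between the Th2 library sets, 0 to 2 and 1 to 2 for TET iTKO against WT at 0 h and 6 h, 1 to 2 for KLA in Tet-cohort WT, and 0 to 1 for the TET effect against the TDG effect at 0 h and at 6 h. Of the recomputed log2 changes of single members 525 kept their direction and side of the threshold, 32 lost and 1 gained the call, and 23 changed sign, and the cause was not tested. Between TDG iKO and WT Th2 cells Cxcr3 was at -0.07 with 8 unsummed libraries, at -0.39 with the replicate block, at -0.63 with the block and 8 libraries and at -0.37 with the library set, and Tbx21 at -0.25 with the block, -0.44 with the block and 8 libraries and -0.15 with the library set. Leaving out single samples moved Cxcr3 there from -0.47 to 0.56 and Tbx21 from -0.81 to 0.69, and between library sets Eomes from -0.29 to 0.59 and Ahr from -0.05 to 0.40. In TDG iKO BMDMs it moved Cxcr3 from -1.54 to 0.90, Ahr from -0.46 to 0.61 and Runx3 from -1.12 to 0.70 at 0 h, and Ahr from -0.18 to 0.68 at 6 h. It moved Bcl6 in TET iTKO at 6 h from -0.07 to 0.15, and the KLA change of Runx3 from -1.51 to 0.30 in Tdg-cohort WT and from -0.43 to 0.31 in TET iTKO. The replicate block changed no call of a member beyond that of Runx3 after KLA in Tet-cohort WT.

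Over all genes, the count between TDG iKO and WT Th2 cells was 0, against 15 with the replicate block, 87 with the block and 8 libraries, 42 with the library set, 2 with 8 libraries and 47 with replicates 1 and 2 alone. The block gave 1805 against 1006 genes for KLA in Tdg-cohort WT and 1373 against 821 in TDG iKO (nested in genotype 1813 and 1315). By edgeR 1637 against 916 genes were called for TET iTKO at 0 h, 1407 against 762 at 6 h, and 1 against 11 for the TET effect against the TDG effect at 6 h. For the difference of the KLA response in TET iTKO the count was 52, against 270 by edgeR, 90 with the block and 224 with the nested block. Depth limits Cxcr3 most in Tet-cohort WT after KLA, where 2 libraries held 3 counts in all.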

Other observations

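The genes whose levels most resembled those of the members over all 22 samples, by Pearson correlation of log2(CPM + 1) among 11354 genes, are given as a description, since the points share libraries and fall into 2 cell types that set most of the correlation. Tbx21 was closest to Il5, the eosinophil cytokine of Th2 cells (r = 0.986), Eomes to Hist1h4d, Chst2 and Car12 (0.990 each) and Runx3 to Rbm15 (0.984) and the amino acid transporter Slc7a5 (0.983). Foxp3 was closest to 4930412O13Rik (0.978) and Cacna1c (0.971), and Cxcr3 to 9030617O03Rik (0.95) and the mitotic kinesin Kif11 (0.943). Bcl6, high in BMDMs, was closest to Xylt2 (0.997) and Oasl2 (0.996), and Ahr to Adck3 (0.961) and Birc3 (0.952), an inhibitor of apoptosis induced by NF-κB.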
